A study of Gallus gallus with 100 samples.

Results

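Glands labelled whole pituitary, from 5 heat-stressed and 5 control broilers, were compared at day 40 by RNA-seq, with 1 bird per library. The 10 libraries were chosen by their labels, which give day 40, the group and a library number, and they are 10 of the 98 libraries that have values among the 100 labelled in the study. All birds were males of the broiler line Ross 708, a meat-type chicken, under 23 h of light and 1 h of dark. Heat-stressed birds lived in a house that was warmed from 25 to about 35 to 37 degrees Celsius for 8 h of each day from day 21 onward. Control birds lived in a house held at 25 degrees Celsius. There was 1 house per treatment, so an effect of heat and an effect of the house cannot be told apart. The labels add the word Week to both groups and do not explain it, and day 40 is not among the collection days 21, 22, 26, 32 and 42 that the protocol names, so how long these birds had been under heat is not stated in the sources used here.

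The pituitary joins an anterior lobe, whose endocrine cells make growth hormone, prolactin, the glycoprotein hormones and the POMC-derived peptides, to a posterior lobe made of glia and of the endings of hypothalamic nerve cells that release vasotocin and mesotocin. Heat typically induces chaperones through heat shock factors, and as a stressor it acts on the gland through the axis that runs from hypothalamic CRH to POMC and on to adrenal corticosterone, whose receptor induces genes such as FKBP5 in many tissues. Ribosomal proteins, the myelin of the posterior lobe and its surroundings, and the hypothalamic peptides are therefore read here beside the chaperones and the hormones.

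The glands of day 40 held almost no RNA of anterior lobe hormones. GH, which encodes growth hormone, was at 0, 18.0, 19.2, 15.4 and 22.9 FPKM in heat-stressed birds 1278, 1515, 1574, 1575 and 1576, against 22.1, 7.13, 8.56, 13.8 and 15.3 FPKM in control birds 1279, 1516, 1577, 1578 and 1579 (FPKM counts sequenced fragments relative to gene length and library size). The GH value of 0 in heat-stressed bird 1278 stood apart from its group, and whether it is a true absence was not tested. POMC, the precursor of ACTH, lay between 0.109 and 10.8 FPKM in heat-stressed birds and between 0 and 8.67 FPKM in controls. CGA, the subunit shared by the glycoprotein hormones, lay between 0.109 and 11.8 FPKM in heat-stressed birds and between 0.371 and 8.33 FPKM in controls. The groups overlapped for all 3 hormones. PRL (prolactin) and FSHB (the follicle-stimulating hormone subunit) were below 1 FPKM in every library, as was POU1F1, the transcription factor of the growth hormone and prolactin lineage.

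Genes of myelin-forming cells were abundant instead. CLDN11, a tight junction protein of central myelin, had 1050.3, 988, 1031, 881 and 970.4 FPKM in heat-stressed birds, against 1083, 849.6, 919, 916 and 1122 FPKM in controls. Day 42 was the reverse of this. There the hormones GH, POMC, PRL, CGA and FSHB summed to between 88482 and 229324 FPKM in 17 heat-stressed birds and between 84532 and 211422 FPKM in 10 controls, and CLDN11 did not exceed 16.8 FPKM in heat-stressed birds or 9.41 FPKM in controls. At day 32, where FSHB is not in the sum, hormones reached at most 459 FPKM in 6 heat-stressed birds and 1625 FPKM in 6 controls. The comparison below therefore describes heat in glands labelled whole pituitary in which myelin genes are abundant and anterior hormones nearly missing, and in such bulk tissue fewer cells of a type and less RNA per cell cannot be told apart.

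**Figure D1:**
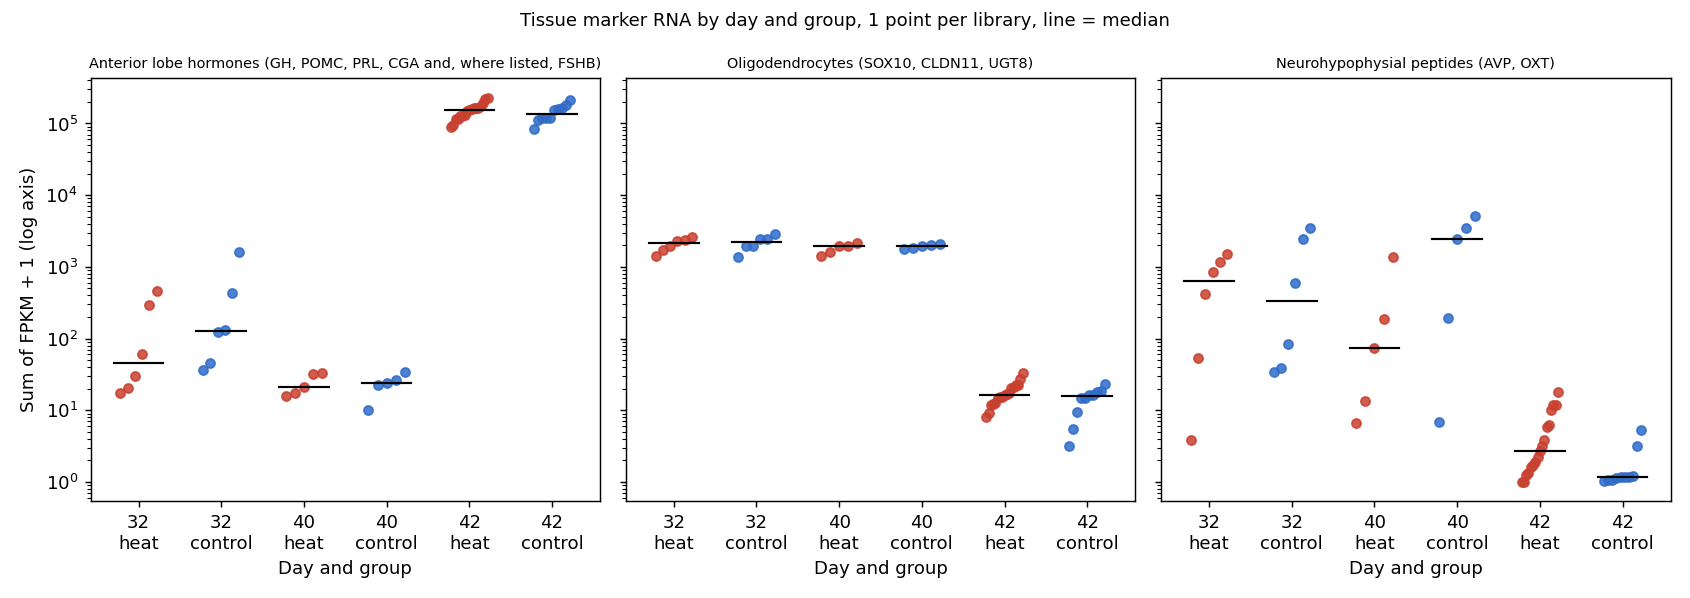
Summed FPKM + 1 (log axis) of 3 marker sets by day and group, with 1 point per library and a line at the median. At day 40 hormone RNA reaches at most 31.6 FPKM in heat-stressed birds and 33.5 FPKM in controls, while the oligodendrocyte markers SOX10, CLDN11 and UGT8 sum to at least 1406 FPKM in heat-stressed birds and 1789 FPKM in controls; the order is turned round at day 42.

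The sum of FPKM, which is already scaled by library size, was 303958 ± 17548 in heat-stressed birds and 289525 ± 9881 in controls (SD, n = 5 each; exact permutation test, two-sided p = 0.159, the smallest p this design allows being 0.00794), and the depth relative to the deepest library was 0.684 to 0.897 in heat-stressed birds and 0.732 to 1 in controls (exact permutation p = 0.405). Genes at 1 FPKM or more numbered 8472 ± 171 in heat-stressed birds and 8676 ± 109 in controls (SD, n = 5 each; exact permutation p = 0.0635). The first principal component held 25.8% of the variance and separated library numbers, not treatments: both treatments have 1 library at 1278 or 1279, 1 at 1515 or 1516 and 3 among 1574 to 1579, and 122 genes passed the adjusted threshold of limma between these ranges. The second component held 16.6%. It was at 11.4 ± 23.9 in heat-stressed birds and -11.4 ± 10.7 in controls (SD, n = 5 each, exact permutation p = 0.0556). The groups overlapped on it. Heat-stressed birds 1515 and 1575 were at -13.5 and -0.885, within the control range of -23.0 to 0.113. Heat-stressed birds 1574 and 1576 were highest, at 48.0 and 20.8. Single libraries stood apart by genes of other tissues. Control bird 1579 had 82.5 FPKM of TPH1, 39.1 FPKM of ASMT and 13.2 FPKM of AANAT, the enzymes of melatonin synthesis in the pineal gland, each below 1 FPKM in the other 9 libraries. Heat-stressed bird 1574 had 66.1 FPKM of TNNC2 and 47.7 FPKM of MYL1, genes of fast skeletal muscle that were below 1 FPKM elsewhere, and control bird 1578 had 867 FPKM of SPP1 and 129 FPKM of MMP13, which did not exceed 8.00 and 0.534 FPKM elsewhere.

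No gene passed the test. Of 12694 genes listed, the 8831 with a mean of at least 1 FPKM were compared on log2(FPKM + 1) with limma, and 0 (0%) had a Benjamini-Hochberg adjusted p under 0.05; the smallest was 0.934, shared by all of the leading genes described below. Unadjusted, 113 genes higher in heat-stressed birds (1.28%) and 303 lower ones (3.43%) had a p under 0.05, together 4.71% of those tested. All 5 heat-stressed birds were above all 5 controls in 18 genes (0.204%) and below them in 46 genes (0.521%). The split between directions depended on the scaling of the libraries. With each library rescaled to its median gene, 249 genes were higher and 198 lower at an unadjusted p under 0.05, and on the TPM scale 53 were higher and 478 lower, with 0 genes past the adjusted threshold under either. The median half-width of the 95% interval of a fold change was 0.43 on the log2 scale, and for 81.2% of genes the whole interval lay within a 2-fold change in both directions. Every fold change below is on the log2(FPKM + 1) scale, heat-stressed minus control, on which changes of weakly expressed genes come out too small, and the genes given are those with the smallest p of a set, not genes shown to respond.

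Among the genes with the smallest p on the higher side, ASPM, ATP2B1, TPT1 and RPS10 had groups that did not overlap. Over all genes tested the share was 0.204%, and a pick by p between the same groups favours such genes. ASPM (chromosome 8, 2593563 to 2625585 on the galGal4 genome), which organises spindle poles in dividing cells, had 3.34, 2.79, 4.04, 2.04 and 2.61 FPKM in heat-stressed birds, against 0.505, 0.612, 0.433, 0.340 and 1.43 FPKM in controls. Its log2 fold change was 1.27 ± 0.21 (SE, n = 5 each) with a 95% interval from 0.80 to 1.73. It passed the filter of 1 FPKM only through heat-stressed birds, at a mean of 2.96 FPKM against 0.664 FPKM in controls. Its entry into the test thus depended on the difference tested. The cell cycle list did not share this size of difference: 16 of its 23 tested genes had a positive fold change and 7 a negative one, with a median of 0.09, and 0 of them reached an unadjusted p under 0.05. CDK1, the kinase that drives entry into mitosis, was closest, at 12.1 ± 1.53 FPKM in heat-stressed birds and 9.65 ± 1.75 FPKM in controls (SD, n = 5 each).

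ATP2B1 (chromosome 1, 43275194 to 43305815), a calcium pump of the plasma membrane, had 18.4, 15.6, 21.4, 23.0 and 16.8 FPKM in heat-stressed birds, against 9.61, 15.1, 7.94, 9.92 and 11.4 FPKM in controls. Its log2 fold change was 0.78 ± 0.17 (SE). The lowest heat-stressed bird and the highest control, 1515 and 1516, differ little and come from the same range of library numbers. ACBD7 (chromosome 2, 20501826 to 20505072), a small acyl-CoA binding protein, had 484, 534, 677, 690.5 and 569 FPKM in heat-stressed birds, against 542, 289.8, 368, 223 and 235 FPKM in controls. Its groups overlapped through control bird 1279, and the log2 fold change was 0.90 ± 0.23 (SE). CHD9, a chromatin remodeller, was at 11.4 ± 1.80 FPKM in heat-stressed birds and 6.95 ± 2.24 FPKM in controls, and NEB, which encodes the giant filament protein nebulin of muscle, at 5.63 ± 1.70 and 2.07 ± 1.35 FPKM in heat-stressed and control birds (SD, n = 5 each). NEB was not highest in heat-stressed bird 1574, the library with the muscle genes. RAP1A, a small GTPase, was at 324 ± 31.0 FPKM in heat-stressed birds and 244 ± 35.5 FPKM in controls (SD, n = 5 each), and its locus overlaps another gene of the table, LOC101751323, so reads may be shared between them. RPL34, RPS10 and TPT1 are described next.

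Genes of ribosomal proteins made up 24 of the 113 genes higher at an unadjusted p under 0.05. Both counts moved with the setting. They were 8 of 53 on the TPM scale and 30 of 249 with rescaling to the median gene. Without heat-stressed bird 1576 they were 12 of 99, and without heat-stressed bird 1574 13 of 88. Without control bird 1579 they were 14 of 72, and without control bird 1578 15 of 83. Of 54 tested, 53 had a positive log2 fold change and 1, RPS28, a negative one, and the median was 0.28; over all genes tested 40.4% were positive, 59.6% negative and the median was -0.05. None passed the adjusted threshold. All 5 heat-stressed birds were above all 5 controls in 8 of the 54, against 0.204% of all genes. Members of a list were measured in the same birds and are not replicates. Counts of members, here and for the lists below, are therefore not independent evidence. RPS12 (chromosome 3, 56046940 to 56052149), a protein of the small subunit, had 1874, 2549.7, 1870.2, 1766 and 2378 FPKM in heat-stressed birds, against 1179, 1739.6, 1606, 1499 and 1401 FPKM in controls, with no overlap and a log2 fold change of 0.49 ± 0.14 (SE). RPS10 (chromosome 26, 4318562 to 4324086), of the same subunit, had 1583, 1174, 1362, 1246 and 1480.0 FPKM in heat-stressed birds, against 976, 1149, 1133, 1019.7 and 947 FPKM in controls. Its groups did not overlap either, and the log2 fold change of 0.39 ± 0.11 (SE) was small. RPL34, of the large subunit, was at 903 ± 107 FPKM in heat-stressed birds and 659 ± 86.4 FPKM in controls, and its groups overlapped. TPT1, a growth-linked protein whose mRNA shares the translational control of ribosomal protein mRNAs in mammals, had 1606, 1298, 1243, 1156 and 1393 FPKM in heat-stressed birds, against 1082, 976, 1028, 896 and 1029 FPKM in controls. Its groups did not overlap, and its log2 fold change was 0.41 ± 0.11 (SE).

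Summed over the 55 ribosomal protein genes listed, the level was 40093, 36718, 40526, 38289.6 and 51478 FPKM in heat-stressed birds, against 29365, 35562, 36229, 32513 and 32307 FPKM in controls. Every heat-stressed sum was above every control sum, but by little between heat-stressed bird 1515 and control bird 1577. The highest sum, in bird 1576, includes 7456 FPKM of RPL36, a gene at 1063 to 1291 FPKM in the other heat-stressed birds and 681 to 1147 FPKM in controls. The separation depended on scaling. Total FPKM was 303827 in heat-stressed bird 1515 and 286536 in control bird 1516. As a share of that total, control bird 1516 was above heat-stressed bird 1515, so the groups overlapped. Within ranges of library numbers the list was uneven. The median log2 difference was 0.49 between heat-stressed bird 1278 and control bird 1279, with 52 of 54 genes positive, and 0.31 between the means of 1574 to 1576 and of 1577 to 1579, again with 52 positive. It was 0.01 between heat-stressed bird 1515 and control bird 1516, with 28 positive. Of the 54 genes, 25 were higher in heat-stressed birds in all 3 ranges, as were 8.4% of all genes tested.

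The direction of the list moved with expression level in the other genes too, although less. Among genes that are not ribosomal, the median log2 fold change was -0.13 for 1471 genes from 1 to 3 FPKM, -0.03 for 2618 genes from 10 to 30 FPKM and 0.09 for 87 genes at 300 FPKM or more, where 69.0% were positive. The 50 ribosomal genes at 300 FPKM or more had a median of 0.29. By genomic span, the median of genes that are not ribosomal lay between -0.06 and -0.04 in every bin from under 3 kb to over 100 kb. Genes of the respiratory chain, which are also abundant, had a median of 0.10 with 36 of 47 positive. COX7C was the only member at an unadjusted p under 0.05, with 345, 325, 357, 329 and 325 FPKM in heat-stressed birds, against 208, 277, 292, 284 and 291 FPKM in controls. Proteasome genes had a median of 0.05 with 18 of 28 positive. PSMB7 and PSMA3 were higher at an unadjusted p under 0.05, as were 1.28% of all genes tested. The part of expression level in the ribosomal result was not tested. Ribosomal protein genes have near-identical copies in many genomes, and how the counting shared reads among copies is not stated, so single members are uncertain.

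On the lower side, 8 of the 10 genes with the smallest p had groups that did not overlap, against 0.521% of all genes tested. The genes were picked by a p between the same groups, so the lack of overlap adds no support. CPED1 (chromosome 1, 23041662 to 23183290), named for its cadherin-like and PC-esterase domains, had 1.34, 2.71, 2.76, 2.27 and 3.29 FPKM in heat-stressed birds, against 4.85, 5.51, 8.30, 7.26 and 4.85 FPKM in controls. Its log2 fold change was -1.05 ± 0.20 (SE, n = 5 each) with a 95% interval from -1.49 to -0.60. LOC101750146 (chromosome 1, 32562891 to 32568950), which the table describes as envelope glycoprotein gp95-like, had 1.01, 1.17, 1.35, 2.72 and 1.21 FPKM in heat-stressed birds, against 47.3, 43.0, 9.96, 16.6 and 3.24 FPKM in controls. The fold change of -2.87 ± 0.59 (SE) is the largest of the 20 leading genes, and the controls differ widely among themselves.

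TNC (chromosome 17, 2640784 to 2707385) encodes tenascin-C, a matrix glycoprotein of developing and injured tissue. It had 6.58, 6.23, 6.30, 6.95 and 5.80 FPKM in heat-stressed birds, against 14.8, 8.11, 28.2, 16.8 and 18.6 FPKM in controls. The heat-stressed birds lay close together and below every control, the log2 fold change being -1.22 ± 0.25 (SE). APAF1 (chromosome 1, 46536961 to 46564629), the scaffold of the apoptosome that activates caspases, had 1.19, 1.50, 1.56, 2.19 and 1.80 FPKM in heat-stressed birds, against 3.66, 3.73, 3.31, 2.59 and 3.48 FPKM in controls. PCCA (chromosome 1, 143230730 to 143503764), a subunit of mitochondrial propionyl-CoA carboxylase, had 14.8, 13.4, 6.92, 11.9 and 9.87 FPKM in heat-stressed birds, against 22.1, 16.0, 25.4, 22.8 and 24.7 FPKM in controls. Both had groups that did not overlap, with log2 fold changes of -0.72 ± 0.15 for APAF1 and -0.93 ± 0.20 for PCCA (SE).

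SFRP2, a secreted inhibitor of Wnt signalling, was at 19.3 ± 1.83 FPKM in heat-stressed birds and 27.0 ± 3.22 FPKM in controls (SD, n = 5 each). EFNB1, a membrane-bound ephrin ligand, was at 4.37 ± 1.09 FPKM in heat-stressed birds and 7.29 ± 0.874 FPKM in controls (SD, n = 5 each). C5H15ORF52 was at 8.52 ± 0.825 FPKM in heat-stressed birds and 12.1 ± 1.04 FPKM in controls (SD, n = 5 each). None of these 3 genes had overlapping groups, so that all 3 were by construction lower in each of the 3 ranges of library numbers, which held for 17.9% of all genes. ASCC3, a helicase of the ASC-1 complex, was at 2.54 ± 0.700 FPKM in heat-stressed birds and 5.26 ± 1.47 FPKM in controls (SD, n = 5 each) and overlapped. AGBL5, an enzyme that trims glutamates from tubulin tails, is of another kind: it was listed at 0, 2.61, 0, 0 and 0 FPKM in heat-stressed birds, against 2.10, 3.18, 2.54, 2.58 and 2.48 FPKM in controls. AGBL5 passed the filter of 1 FPKM only through controls, at a mean of 2.58 FPKM against 0.523 FPKM in heat-stressed birds. Its locus overlaps OST4 by the end of the gene. At day 40, 295 genes were listed at 10 FPKM or more in one bird and at 0 in another of the same group. Whether an exact 0 is a true absence or a failed estimate was not tested.

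**Figure D2:**
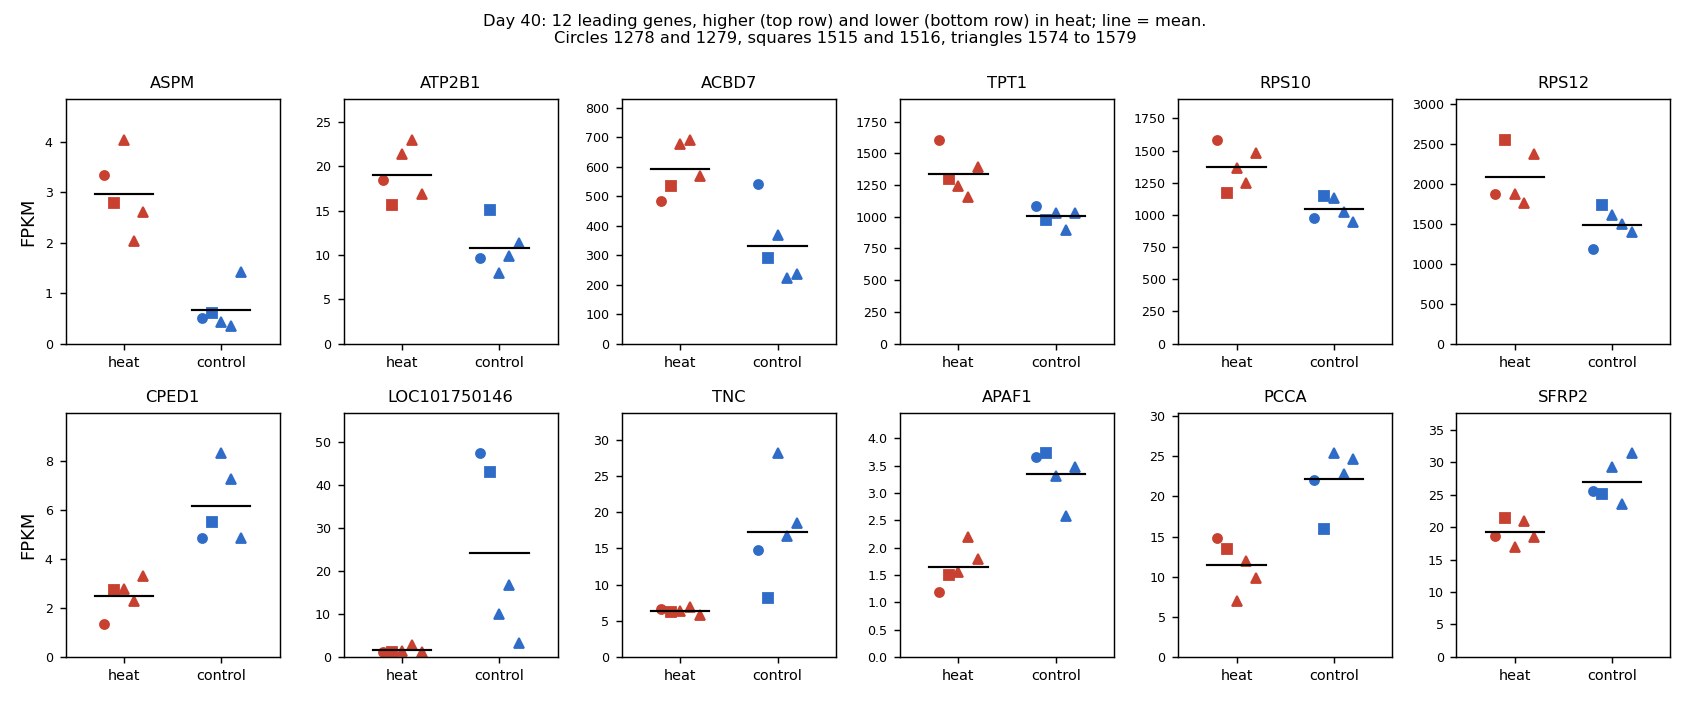
FPKM of 12 genes in each of 5 heat-stressed (red, left) and 5 control birds (blue, right), with a line at the group mean; the marker shape gives the range of library numbers. Of the 12, ACBD7 is the gene whose groups overlap.

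The chaperones that heat induces in most cells were not set apart as a list. Of 24 tested genes of the cytosolic heat shock list 12 had a positive log2 fold change and 12 a negative one, with a median of 0.01, and none reached an unadjusted p under 0.05. For 21 of the 24 the 95% interval excluded a 2-fold change in either direction. The log2 fold changes of the list ran from -0.998 to 1.44, and the members at these ends are not named here. The upper limit lay under 1 in 22 of the 24, and the lower limit above -1 in 22. HSPA8, the constitutive HSP70, had 564, 753, 512, 610.5 and 503 FPKM in heat-stressed birds, against 504, 651, 641, 588 and 659 FPKM in controls, and an interval from -0.35 to 0.23 on the log2 scale. HSP90AA1, the inducible cytosolic HSP90, had 494, 1189, 954, 450.5 and 684 FPKM in heat-stressed birds, against 538, 517, 567, 568 and 577 FPKM in controls. Heat-stressed birds 1515, 1574 and 1576 lie above every control and 1278 and 1575 below every control, so the controls sit between them. The log2 fold change was 0.35 with an interval from -0.19 to 0.89. HSPH1, a nucleotide exchange factor of HSP70, was also highest in 1515 and 1574, at 28.6 and 28.9 FPKM, against 12.0 to 21.3 FPKM in controls.

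The 4 members with the smallest p were HSPB8, HSPD1, HSPA4L and HSPA2. HSPB8, a small heat shock protein, was at 10.1 ± 1.77 FPKM in heat-stressed birds and 14.4 ± 5.04 FPKM in controls, and HSPD1, the mitochondrial HSP60, at 64.4 ± 5.24 and 72.9 ± 7.64 FPKM in heat-stressed and control birds (SD, n = 5 each). HSPA4L, an HSP110 relative, had 11.9 to 19.0 FPKM in heat-stressed birds and 13.6 to 35.3 FPKM in controls, and HSPA2 was at 109 ± 26.1 and 86.7 ± 19.4 FPKM in heat-stressed and control birds (SD, n = 5 each). HSPD1 overlaps COQ10B and HSPA4L overlaps LOC101747307, so reads of these pairs may be shared. The list of endoplasmic reticulum genes holds chaperones and transcription factors of the stress response of that compartment. It had a median log2 fold change of 0.07, with 12 of 19 genes positive and none at an unadjusted p under 0.05. Its 4 smallest p values belonged to ATF6, SDF2L1, ATF4 and XBP1, with log2 fold changes of -0.25, 0.16, 0.12 and 0.23. Of these, ATF6, ATF4 and XBP1 are such transcription factors. CIRBP, an RNA-binding protein that cold induces in many vertebrates, had 221, 293, 257, 311 and 396 FPKM in heat-stressed birds, against 223, 338, 269.6, 305 and 334 FPKM in controls, and an interval from -0.38 to 0.37.

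Among targets of the glucocorticoid receptor, too, no gene reached an unadjusted p under 0.05, although more members were positive than negative. FKBP5, a co-chaperone of that receptor, had 36.2, 29.6, 56.6, 46.8 and 73.0 FPKM in heat-stressed birds, against 38.9, 58.9, 30.8, 39.2 and 58.9 FPKM in controls. The groups overlapped over most of their range, with an interval of the log2 fold change from -0.51 to 0.65. Over the 10 tested genes of the list 8 were positive and the median was 0.16, which is 0.15 to 0.31 above the median of all genes in the other settings, with up to 2 members higher at an unadjusted p under 0.05. SGK1, a kinase of ion transport, was at 24.8 ± 3.50 FPKM in heat-stressed birds and 21.0 ± 2.62 FPKM in controls, and NFKBIA, the inhibitor of NF-kappa-B, at 13.9 ± 4.42 and 11.9 ± 0.825 FPKM in heat-stressed and control birds (SD, n = 5 each). ZBTB16, a transcriptional repressor, ranged from 0.340 to 5.31 FPKM in heat-stressed birds and from 0.109 to 1.57 FPKM in controls. PDK4, a brake on pyruvate use, ranged from 0.363 to 2.79 FPKM in heat-stressed birds and from 0.507 to 1.28 FPKM in controls.

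Of 17 tested antioxidant genes a pair reached an unadjusted p under 0.05, both higher, where 1.28% of all genes were higher. The count was 0 in libraries 1574 to 1579 alone, 1 on the TPM scale and 4 with rescaling to the median gene. PRDX1, a peroxiredoxin that removes hydrogen peroxide, had 488, 562, 729, 550.3 and 516 FPKM in heat-stressed birds, against 405, 433, 492, 413 and 467 FPKM in controls, a log2 fold change of 0.35 ± 0.12 (SE). HMOX1, the inducible heme oxygenase, had 226, 236, 337, 136 and 269 FPKM in heat-stressed birds, against 145, 160.3, 151, 147 and 184 FPKM in controls, a log2 fold change of 0.56 ± 0.21 (SE). In HMOX1 4 of 5 heat-stressed birds lay above every control and the other, 1575, below every control. PRDX3 and GCLC, a mitochondrial peroxiredoxin and the enzyme that limits glutathione synthesis, had log2 fold changes of 0.27 and 0.22. The list as a whole had 14 of 17 genes positive with a median of 0.03, but 7 positive and a median of -0.04 on the TPM scale, and 8 positive without heat-stressed bird 1278.

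**Figure D3:**
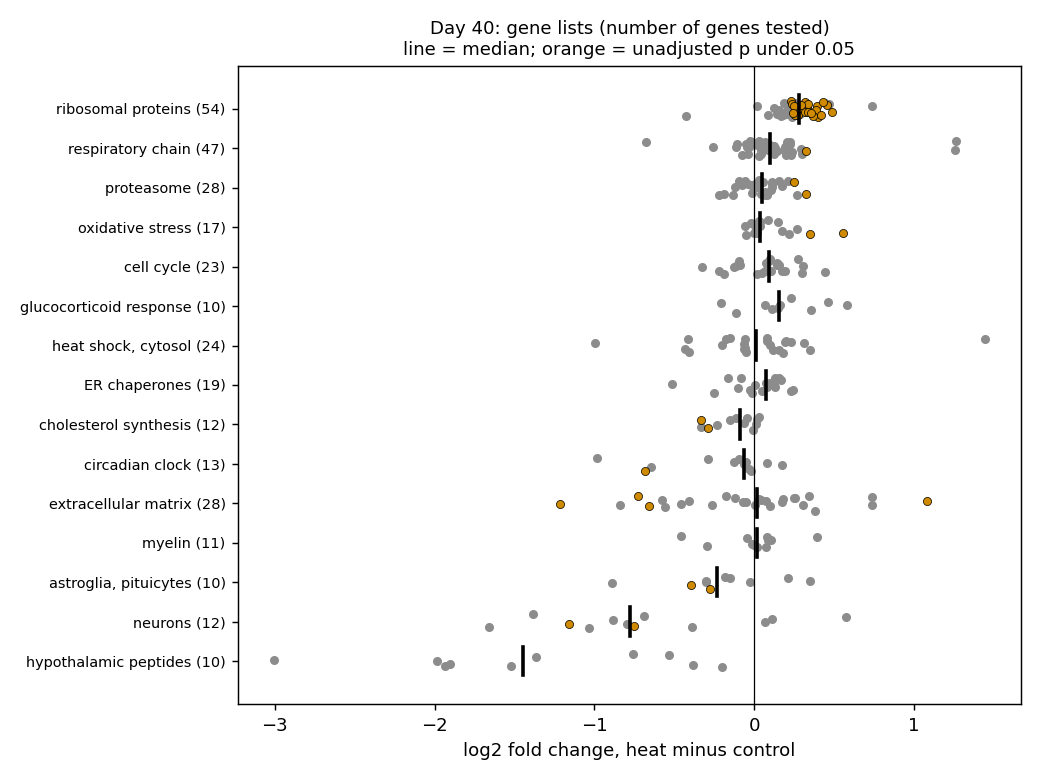
Log2 fold change (heat-stressed minus control) of the tested genes of 15 lists, 1 point per gene, with a black line at the list's median and orange points for genes at an unadjusted p under 0.05. The ribosomal list lies right of 0 at a median of 0.28, the hypothalamic peptides spread left of 0 around a median of -1.44, and the heat shock list is centred at 0.01.

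Hypothalamic peptides had the widest differences and the widest spread. AVP, which in birds encodes the precursor of vasotocin, had 70.9, 185, 5.49, 1345 and 12.2 FPKM in heat-stressed birds, against 5.70, 187, 2384, 3447 and 4972 FPKM in controls. The highest heat-stressed bird, 1575, lies below 3 controls and above the other 2, so the groups overlap over most of their range. The log2 fold change of -3.01 has a 95% interval from -7.35 to 1.34. OXT, the precursor of mesotocin, had 1.54, 4.12, 0.124, 44.1 and 0.246 FPKM in heat-stressed birds, against 0.106, 3.12, 24.6, 63.4 and 78.4 FPKM in controls, and so the same birds were high in both peptides.

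All 10 tested peptides had a negative log2 fold change, with a median of -1.44, and none reached an unadjusted p under 0.05. Such genes numbered 5 in libraries 1574 to 1579 alone, 6 without heat-stressed bird 1575, 5 without control bird 1279, 2 without control bird 1516 and 1 in a fit with a term for number range, all lower. In the same order, lower calls over all genes were 386 of 8809, 472 of 8815, 489 of 8832, 230 of 8811 and 386 of 8831. In the main fit 303 of 8831 genes were lower. The count of peptides ranged from 0 to 6 over all settings. PENK, the proenkephalin gene, had 1.12, 2.30, 0.283, 19.9 and 0.731 FPKM in heat-stressed birds, against 1.74, 2.77, 12.0, 38.1 and 59.2 FPKM in controls. Galanin (GAL) had 1.23, 7.88, 0.443, 42.2 and 0.333 FPKM in heat-stressed birds, against 4.49, 14.7, 5.47, 38.0 and 60.3 FPKM in controls. TAC1, the substance P precursor, ranged from 0.164 to 12.6 FPKM in heat-stressed birds and from 0.963 to 25.5 FPKM in controls, and PDYN, the dynorphin precursor, from 0.216 to 3.60 and from 0.622 to 12.2 FPKM in heat-stressed and control birds. In all 4 genes heat-stressed bird 1575 had the highest value of its group.

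Markers of nerve cells were lower in most members, but not in all. Of 12 tested genes of the neuron list 9 were negative and 3 positive, with a median of -0.78 and a highest log2 fold change of 0.57. The list summed to between 186 and 379 FPKM in heat-stressed birds and between 180.0 and 476 FPKM in controls. NEFL and NEFM, subunits of the neurofilament, were lower at an unadjusted p under 0.05, as were 3.43% of all genes tested. The count of such neuron genes ranged from 0 to 8 over all settings. NEFL had 4.18, 6.40, 1.67, 14.4 and 2.39 FPKM in heat-stressed birds, against 5.25, 7.67, 12.7, 16.4 and 21.7 FPKM in controls. GAD2, an enzyme of GABA synthesis, ranged from 0.417 to 28.9 FPKM in heat-stressed birds and from 1.81 to 35.5 FPKM in controls, and GAP43, of growing axons, from 5.65 to 22.0 and from 11.7 to 37.5 FPKM in heat-stressed and control birds. The part of nerve cell RNA in the peptide differences was not tested.

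The peptide difference was carried by the libraries numbered 1574 to 1579. There the median log2 difference of the 10 peptides was -2.40, with 0 of 10 positive, while it was -0.12 between heat-stressed bird 1278 and control bird 1279, with 3 positive, and 0.05 between heat-stressed bird 1515 and control bird 1516, with 5 positive. For the neuron list the differences in the same ranges were -1.20, -0.25 and 0.20, with 3, 2 and 11 of 12 genes positive. Control bird 1579, highest in AVP, OXT, PENK and GAL, is the library with the pineal genes.

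**Figure D4:**
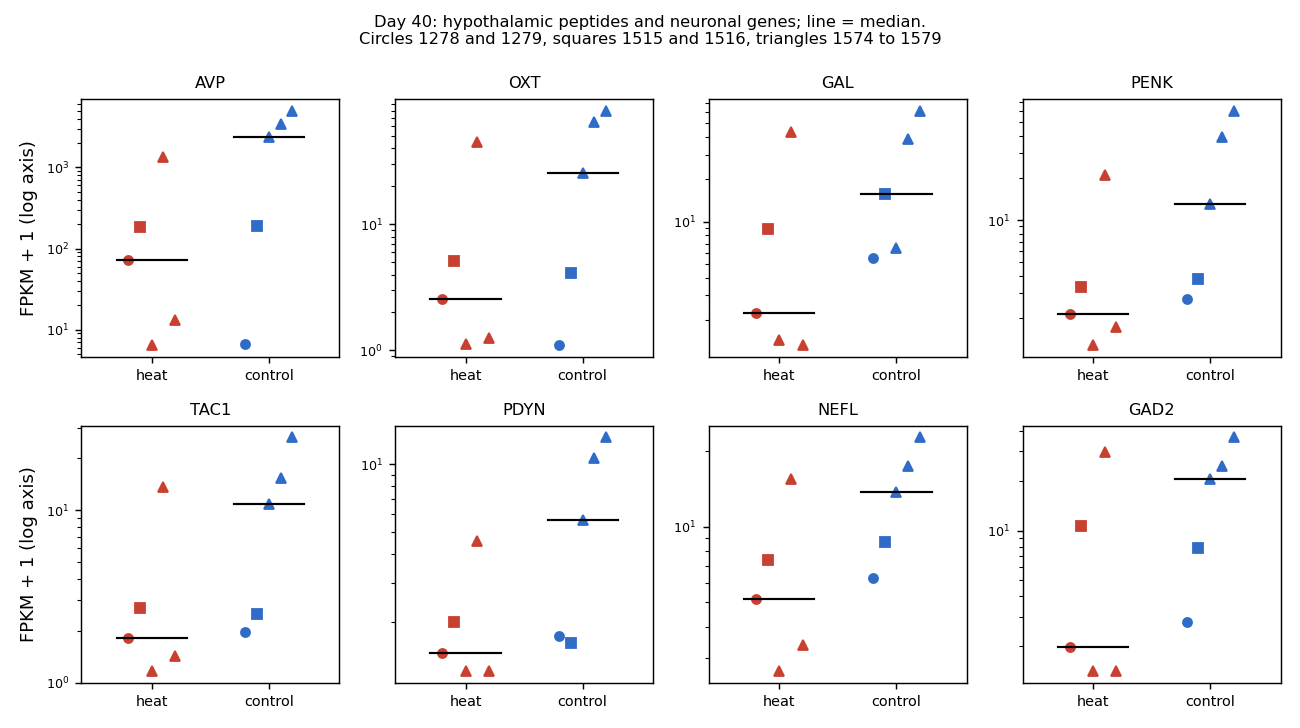
FPKM + 1 (log axis) of 6 hypothalamic peptide genes and 2 neuronal genes in 5 heat-stressed (red, left) and 5 control birds (blue, right), with a line at the median and the marker shape giving the range of library numbers. In AVP and OXT the circles and squares of both groups lie below the 3 control triangles, and heat-stressed bird 1575 is the highest red point in all 8 genes.

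Glial genes differed less. Among 11 tested myelin genes 6 were positive, with a median of 0.01, and for CLDN11 the 95% interval of the log2 fold change ran from -0.22 to 0.25. NINJ2, the member with the smallest p, was at 221 ± 25.4 FPKM in heat-stressed birds and 183 ± 93.4 FPKM in controls (SD, n = 5 each). Among 10 tested genes of astroglia and pituicytes 8 were negative, with a median of -0.23, against -0.05 over all genes tested. The sum over the 12 genes listed went the other way, at 1278 ± 77.3 FPKM in heat-stressed birds and 1199 ± 82.1 FPKM in controls (SD). A pair of the 10 reached an unadjusted p under 0.05, both lower, where 3.43% of all genes were lower. With rescaling to the median gene 0 were lower, and in libraries 1574 to 1579 alone 0 were lower and 1 higher. GJA1, the gap junction protein connexin 43, had 131, 135, 115, 139.8 and 124 FPKM in heat-stressed birds, against 149.8, 173, 160.2, 147 and 152 FPKM in controls. Its groups did not overlap, as in 0.521% of all genes in that direction, and the log2 fold change was -0.28 ± 0.09 (SE). AQP4, the water channel of astroglial end-feet, had 66.6, 61.8, 74.7, 99.0 and 59.9 FPKM in heat-stressed birds, against 87.6, 101, 105, 78.6 and 101 FPKM in controls, and overlapped through heat-stressed bird 1575.

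Matrix genes went both ways, 15 positive and 13 negative of 28, with a median of 0.02. Besides TNC, FN1 (fibronectin) and FMOD (fibromodulin) were lower at an unadjusted p under 0.05, as were 3.43% of all genes tested. FN1 was at 15.1 ± 6.67 FPKM in heat-stressed birds and 23.7 ± 6.07 FPKM in controls, and FMOD at 5.09 ± 2.26 and 8.92 ± 2.96 FPKM in heat-stressed and control birds (SD, n = 5 each). FBN1, the microfibril protein fibrillin, was higher, with 7.49, 11.8, 40.2, 28.4 and 17.3 FPKM in heat-stressed birds, against 10.2, 7.52, 8.06, 9.85 and 5.08 FPKM in controls. Its highest bird, 1574, is the library with the muscle genes, and the other heat-stressed birds reach 28.4 FPKM.

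Single members of other lists reached an unadjusted p under 0.05. Over all genes tested 59.6% were negative, and 1.28% were higher and 3.43% lower at that threshold. Lists with a small majority of negative members, such as lineage factors and housekeeping genes, are near that share. INSIG1 and FDFT1, which restrain and carry out cholesterol synthesis, were lower, at 48.9 ± 6.81 and 74.1 ± 12.1 FPKM in heat-stressed birds, against 59.8 ± 5.78 and 92.9 ± 13.1 FPKM in controls (SD, n = 5 each); that list had 9 of 12 genes negative and a median of -0.09. CLOCK, a core transcription factor of the circadian clock, was at 2.79 ± 1.42 FPKM in heat-stressed birds and 4.80 ± 1.04 FPKM in controls, in a list with 11 of 13 negative and a median of -0.07; without heat-stressed bird 1278, and in libraries 1574 to 1579 alone, 7 of the 13 were positive, with medians of 0.02 and 0.03. KLF2 (immediate early, 8 of 10 negative) had a log2 fold change of -0.70, SLC7A11 (the cystine transporter, in a list of amino acid stress with 6 of 11 positive) -0.41, PTPRC (the leukocyte antigen CD45, 6 of 7 negative) -0.47, and S100A1 (folliculostellate and stem cell markers, 4 of 7 positive) 0.58. Lineage factors had 4 of 6 genes negative. No member reached that threshold among granule processing genes (9 of 10 negative, PCSK1 at -0.62) or steroid and thyroid receptors (5 of 7 negative, RXRG at -0.35). The same held for endothelial and mural genes (9 of 12 negative, FLT1 at -0.50) and housekeeping genes (5 of 8 negative). It also held for the 6 skeletal muscle genes, all positive (TNNT3 at 0.86). Of these, MYL1, TNNC2 and TNNT3 passed the filter of 1 FPKM only through heat-stressed bird 1574. The pineal genes were negative in 3 of 3 (TPH1 at -1.41) and passed that filter only through control bird 1579. For these muscle and pineal genes, entry into the test thus depended on 1 bird. Of the receptors for releasing hormones and of red cell genes only 1 member each was tested.

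Whether heat acted differently at day 40 than at another day was tested as a difference of the heat effects. Each heat effect was taken within its own table, and the tables share no libraries. The labels of day 32 add 4 Hour to both groups, where those of day 40 add Week. For day 42 the protocol gives 3 weeks of heat. The labelled exposure thus changes along with the day, and an effect of age and one of exposure cannot be told apart. Against day 42, 1 of 8691 genes passed the adjusted threshold (0.0115%), against 158 genes at an unadjusted p under 0.05 (1.82%). The gene was TNC. Its log2 fold change was -1.22 at day 40 and 0.02 at day 42, a difference of -1.23 ± 0.22 (SE) with an adjusted p of 0.0173 by limma. At day 42 TNC was near absent in both groups, with medians of 0.145 FPKM in 17 heat-stressed birds and 0.147 FPKM in 10 controls, so that a fold change on this scale could hardly differ from 0 there. The fit used 1 variance per gene over both days, so the small spread of day 42 enters the SE of the difference. That SE is below the SE of 0.25 of the day 40 effect alone, so the SE and the adjusted p may be too small. The call was lost with a pseudocount of 0.1 (adjusted p = 0.9999 by limma) and in 5 of 10 fits with a bird of day 40 left out, namely heat-stressed bird 1515 or 1576 or control bird 1577, 1578 or 1579 (adjusted p up to 0.0941 by limma). The next genes, LOC101750146 and TOMM70A (an import receptor of mitochondria), had differences of -2.95 and -2.50 and adjusted p values of 1.000 by limma. TOMM70A was listed at 0 in heat-stressed birds 1278 and 1515 of day 40 and in 4 controls of day 42.

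Against day 32, 1 of 8477 genes passed (0.0118%), with 389 at an unadjusted p under 0.05 (4.59%). The gene was LOC428702 (whose mean at day 40 is under 1 FPKM; chromosome 4, 2292845 to 2294196), which the table describes as gap junction alpha-3 protein-like and which lies inside the locus of NLGN3. At day 40 it had 0.410, 0.580, 0.269, 0.175 and 0.321 FPKM in heat-stressed birds, against 0.590, 1.10, 0.854, 0.924 and 1.01 FPKM in controls. At day 32 its median was 2.21 FPKM in 6 heat-stressed birds and 0.924 FPKM in 6 controls. The groups did not overlap at day 40, and the difference of the log2 fold changes was -1.33 ± 0.22 (SE) with an adjusted p of 0.0477 by limma. The gene passed the 1 FPKM filter only through heated birds of day 32, at a mean of 2.40 FPKM against 0.883 FPKM in their controls, so its entry into the test depended on the difference tested. The call was lost with a pseudocount of 0.1 (0.0627), with rescaling to the median gene (0.105), without genes of unstable zeros (0.0634) and in 9 of 10 fits with a bird left out, all but that without control bird 1279 (adjusted p up to 0.162 by limma). XPNPEP1, an aminopeptidase, and ITGA9, an integrin chain, came next with differences of 1.13 and 1.33 and adjusted p values of 0.908 by limma.

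For lists the difference between days was not tested as a whole. The 52 ribosomal members tested against day 32 had a median log2 fold change of 0.28 at day 40, with 51 positive, and of -0.12 at day 32, with 10 positive; over all 8477 genes the medians were -0.05 at day 40 and -0.18 at day 32. In 9 of the 52 the difference of heat effects was above 0 at an unadjusted p under 0.05 and in 0 below 0, while over all genes 331 (3.9%) were above 0 and 58 (0.684%) below. The 48 members tested against day 42 had medians of 0.26 at day 40 and 0.04 at day 42, with 0 members at an unadjusted p under 0.05 for the difference. None of these passed the adjusted threshold. The 23 heat shock genes tested against day 42 had a median of 0.08 at day 40 and 0.39 at day 42, with 12 positive at day 40 and 16 at day 42, and the difference was at an unadjusted p under 0.05 in 1 gene in each direction. The 10 peptides had a median of -1.44 at day 40 and -0.04 at day 42, with 4 differences below 0 at an unadjusted p under 0.05; over all genes 68 (0.782%) were above 0 and 90 (1.04%) below. At day 42 the peptides were scarce, AVP having medians of 1.67 FPKM in heat-stressed birds and 0.118 FPKM in controls, which again leaves little room for a fold change on this scale. The variance behind these differences was likewise pooled over both days. In the 14 peptides tested against day 32 the medians were -0.65 at day 40 and -0.67 at day 32.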

How the data were processed

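RNA of glands labelled whole pituitary was sequenced with 1 library per bird. The authors deposited FPKM values per gene, made from reads placed on the galGal4 genome; the submitters' processing notes name Bowtie, TopHat and Cufflinks, with versions not given in the sources used here, and how reads of overlapping genes or near-identical copies were shared is not stated. The library kit marked strand, but whether counting used it is not stated. Columns were tied to samples by the library numbers in the labels, and 3 columns that match no label were not used. Totals of reads are not known from FPKM; relative depth was estimated from the commonest ratio of low values between libraries.

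Of the listed genes, those averaging 1 FPKM or more across the 10 birds entered a limma 3.58.1 fit (R 4.3.3) on log2(FPKM + 1), its variance prior following mean level, with Benjamini-Hochberg adjustment over all genes tested. Differences of heat effects between days were contrasts in 1 limma fit over both tables. Single library measures were compared by exact two-sided permutation tests. The fit was tested on simulated data. Genes named are the 10 with the smallest p in each direction, the anterior hormones, CIRBP and FKBP5, up to 4 members with the smallest p of each list, and the 3 smallest p of each difference; HSPA8, HSP90AA1, HSPH1, RPS12, RPL36, RPS28, AVP, OXT, CLDN11 and the genes by which single libraries stood apart were picked with their values in view. Some genes that this rule takes are not reported here. The birds, lists and comparisons were chosen with earlier results of these data known. Alternatives were another pseudocount, no filter, 2 other scalings, no genes with unstable zeros, a covariate for library number, libraries 1574 to 1579 alone, a 2-fold minimum, other variance models, and each library left out; leaving out libraries 1278 and 1279 was added after seeing the data. No position was converted between genome builds, and sequences were not used here.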

Additional observations from a re-analysis of the deposited data

Results flagged for a closer look

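In 168 groups of 5 birds, 1 group per gene and treatment, the highest or the lowest bird was set against the rest. Such a bird was found in 10 groups, where chance flags about 1 in 20 groups. Not all genes named above were checked. SPP1 and MMP13, high in control bird 1578, and TNNC2 and MYL1, high in heat-stressed bird 1574, were outside these groups. The share flagged therefore holds only for the groups checked. Among heat-stressed birds, 1575 stood apart in NEB (2.73 FPKM, the lowest), in LOC101750146 (2.72 FPKM, the highest) and in TPH1 (0.703 FPKM, the highest), 1515 in AGBL5 (2.61 FPKM, the others being listed at 0) and 1278 in GH (listed at 0). Among controls, 1279 stood apart in ATF6 (6.01 FPKM), NFKBIA (10.5 FPKM) and COX7C (208 FPKM), each the lowest, and in ATF4 (385 FPKM, the highest), and 1579 in TPH1 (82.5 FPKM, the highest). A test of the difference between days passed the adjusted threshold in TNC (-1.23 on the log2 scale, day 40 minus day 42) and in LOC428702 (-1.33, day 40 minus day 32). Both calls were lost with a pseudocount of 0.1, and with a bird of day 40 left out that of TNC was lost in 5 of 10 fits and that of LOC428702 in 9 of 10.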

How the results depend on the processing

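The count of 0 genes at day 40 held under the other settings tried, except that it was 1 in libraries 1574 to 1579 alone (SPHK1, listed at 0 in heat-stressed birds 1574 to 1576), and ranged from 0 to 1 with each library left out (AGBL5 without heat-stressed bird 1515, PARP9 without control bird 1579). Genes at an unadjusted p under 0.05 ranged over all alternatives from 53 to 249 higher and from 171 to 492 lower. For the difference from day 42 the count of 1 became 0 with a pseudocount of 0.1 and 4 with no filter, and ranged from 0 to 2 with a library left out: it was 0 without heat-stressed bird 1515 or 1576 or control bird 1577, 1578 or 1579, and 2 without heat-stressed bird 1575. For the difference from day 32 it became 0 with a pseudocount of 0.1, with rescaling to the median gene and without genes of unstable zeros, and ranged from 0 to 1 with a library left out, the call being lost in 9 of 10. The cause was not tested.

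Fold changes whose sign turned were those of GH (0.60 in libraries 1574 to 1579 alone, 0.75 without libraries 1278 and 1279, -0.59 to 0.56 with a library left out), POMC (-0.97 to 0.029), FKBP5 (-0.095 to 0.22), CIRBP (0.073 when rescaled to the median gene and 0.067 in 1574 to 1579, -0.12 to 0.094), HSPA8 (0.021 when rescaled) and CLDN11 (-0.054 on the TPM scale and -0.033 in 1574 to 1579, -0.034 to 0.066). Median fold changes also changed sign under some settings for heat shock, ER chaperone, antioxidant, clock, amino acid stress, cell cycle, matrix, myelin, muscle, proteasome, lineage and housekeeping lists. The median of ribosomal genes lay between 0.21 and 0.36 and that of the peptides between -2.40 and -1.03. No paired analysis was possible because the labels give heat-stressed and control birds no replicate number in common; a covariate for the range of library numbers gave 0 genes past the adjusted threshold and, unadjusted, 158 higher and 386 lower. FPKM carry no read totals, which leaves the depth behind each value unknown.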
